A study of Mus musculus with 6 samples.

Results

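The Notch receptors, their ligands, the Numb adaptors and the target gene Hes1 were examined in the DNA methylation profile of mouse liver tumors. The 10 genes were Notch1, Notch2, Notch3, Notch4, Numb, Numbl, Jag1, Jag2, Dll1 and Hes1. These genes were chosen with earlier results of these data known, and their regions were then taken by gene name. Every entry of the deposited table whose listed transcription start site (TSS) belonged to one of them was included. That gave 5 of 14176 listed regions, and they fell to 4 genes: Numbl with 2 regions and Notch1, Jag1 and Hes1 with 1 each. The other 6 genes had none. Regions had been entered in the table by the authors from their methylation difference between tumor and normal liver, the smallest absolute difference in it being 20.0001 percentage points. The values below were therefore chosen by the same comparison they describe, and no test was made on them.

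DNA came from liver tissue of male C3H/HeN mice aged 74 weeks, an inbred strain whose males are prone to liver tumors without treatment. One group was 3 normal livers and the other was 3 macroscopic liver tumors that carried a Ha-ras mutation. All animals were second-generation descendants in the untreated arm of a project on arsenic exposure during gestation. Methylation was read by reduced representation bisulfite sequencing (RRBS), which sequences MspI fragments (cut at CCGG) and leaves cytosines readable as C only where they are methylated. Each region carried 1 value from all 6 samples, the mean difference in percent methylation as tumor minus normal, so no spread between samples and no read depth could be given for any value. The sources used here do not say whether normal and tumor tissue came from the same animals, and with methylation alone the tissue label could not be checked against marker expression. Whole tissue was used, and a change of methylation within cells cannot be told apart from a change in the mixture of cell types.

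Notch signalling passes between touching cells. A ligand of the Jagged or Delta-like family on one cell binds a Notch receptor on its neighbour, the receptor is cleaved, and its intracellular part enters the nucleus and switches on genes such as Hes1 with the DNA-binding protein Rbpj. Numb and its relative Numbl are adaptor proteins that bind the receptor and promote its removal from signalling. In the liver the pathway is known for guiding bile duct formation, with Jag1 and Notch2 as the main pair, and for its part in endothelial cells.

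The 5 regions are printed here as reference sequence because each difference rests on the few CpG sites within them. Letters follow the plus strand of GRCm38 (the build mm10) from 5′ to 3′, with every CpG wholly inside a region in capitals. The last base of the Notch1 region is the C of a CpG cut by its end, which is neither marked nor counted. The proximal Numbl region is CpG-rich, while each of the others holds from 2 to 4 whole CpG sites.
Numbl, proximal, chr7:27257355-27257452: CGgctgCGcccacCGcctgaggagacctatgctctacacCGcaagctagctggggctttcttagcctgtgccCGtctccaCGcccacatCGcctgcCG
Numbl, distal, chr7:27255433-27255609: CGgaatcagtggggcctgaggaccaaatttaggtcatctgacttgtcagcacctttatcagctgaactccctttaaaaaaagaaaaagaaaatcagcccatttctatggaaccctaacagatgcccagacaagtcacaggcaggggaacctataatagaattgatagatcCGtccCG
Jag1, chr2:137297934-137297965: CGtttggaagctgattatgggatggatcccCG
Notch1, chr2:26493799-26493991: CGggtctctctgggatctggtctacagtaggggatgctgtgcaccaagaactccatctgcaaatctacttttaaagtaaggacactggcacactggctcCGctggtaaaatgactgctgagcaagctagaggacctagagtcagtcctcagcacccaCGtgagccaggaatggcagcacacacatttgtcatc
Hes1, chr16:30086293-30086470: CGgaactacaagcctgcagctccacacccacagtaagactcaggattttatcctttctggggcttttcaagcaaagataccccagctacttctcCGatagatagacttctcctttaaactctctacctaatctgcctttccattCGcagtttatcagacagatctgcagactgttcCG

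Methylation was lower in tumors at 4 of the 5 regions and higher at 1, the region assigned to Hes1. Losses made up 85.1% of all regions in the table. At the study's threshold of 30 points, 2 of the 5 remained, the proximal Numbl region and the Jag1 region, against 23.5% of all listed regions. The median difference was -26.7 points over the 5 regions and -23.9 points over the whole table. Few cytosines lay behind most of these values. In 3 of them just 1 cytosine was called a differentially methylated cytosine (DMC), as in 16.6% of all regions, and 3 had the minimum of 3 measured cytosines, as in 22.5% of all regions. In 3 of them, the Hes1 region and both Numbl regions, the ends coincided with neighbouring MspI sites, so that the region was a single restriction fragment, as were 30.6% of all regions.

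**Figure D1:**
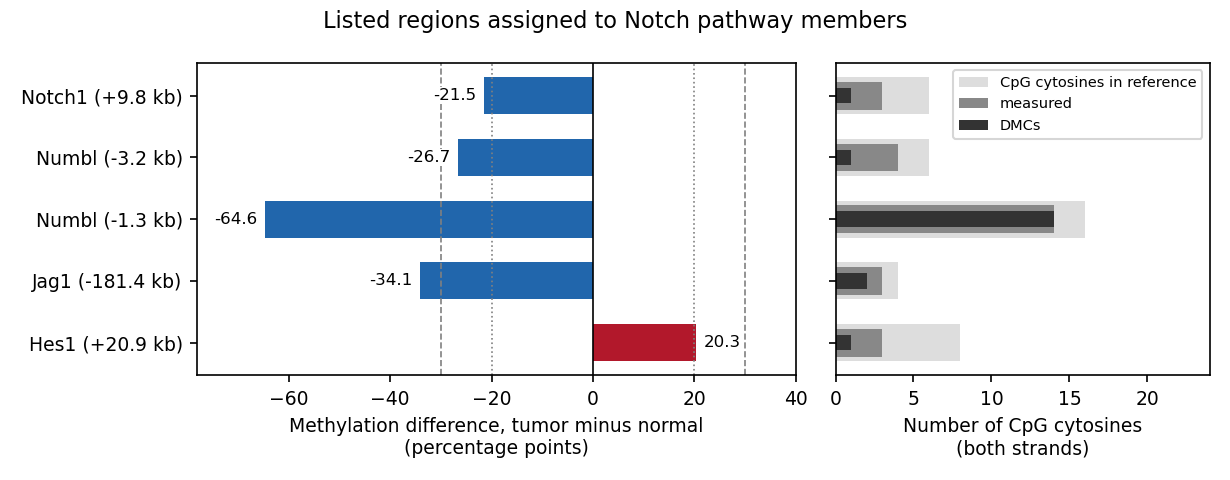
Left, methylation difference (percentage points, tumor minus normal) of each region, labelled by assigned gene and signed distance from its TSS, with dotted lines at 20 and dashed lines at 30 points. Right, CpG cytosines on both strands in the reference, those measured, and those called DMCs. The proximal Numbl region, at -64.6 points, stands out from the others, which lie between -34.1 and 20.3 points.

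The largest change among the 5 regions was at the proximal region assigned to Numbl by its nearest TSS. This region had a difference of -64.6 points, and 14 of 14 measured cytosines were DMCs. The reference has 8 CpG sites there, so 14 of 16 possible cytosines had been measured. Only 4 regions of the table had a larger loss, and it ranked 9 by absolute difference among all 14176. Of the 1032 regions with 14 or more measured cytosines, 32 had every one of them called. These ranks are descriptions, since they order the values that brought regions into the table. The region ended 1309 bp upstream of the listed Numbl TSS and was the one member region within 2000 bp of a TSS, as were 876 of all listed regions (6.18%).

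The proximal region did not lie in Numbl. It fell wholly within the coding part of exon 15 of 15 of Coq8b, which encodes a protein of the atypical kinase family needed for coenzyme Q synthesis. Coq8b is transcribed in the same direction as Numbl and ends 812 bp before the Numbl TSS. The nearest annotated Numbl start, of a predicted transcript, was 986 bp away, and the region lay 24342 bp from the Coq8b TSS. No region was listed under Coq8b, and the Numbl TSS was the closer of the pair to both regions. Whether the loss bears on Numbl, on Coq8b or on neither was not tested.

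The distal Numbl region, 1746 bp further upstream, also showed a loss, of -26.7 points, with 1 of 4 measured cytosines a DMC. It began 22420 bp after the Coq8b TSS, in an intron of that gene, and its near end was 3152 bp upstream of the Numbl TSS. The difference between the values of the Numbl regions was 37.9 points. The proximal region overlapped a CpG island under a wide island definition (a minimum of 50% GC, an observed-to-expected CpG ratio from 0.6 upward, and 300 bp or longer), and the distal region was within 2000 bp of one. Under a stricter definition (55% GC, 0.65, 500 bp) neither overlapped an island. The next listed region was 49296 bp from the proximal region, in a coding exon of Ltbp4, which encodes a latent TGF-beta binding protein, with a difference of -24.7 points and 5 of 8 cytosines DMCs.

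**Figure D2:**
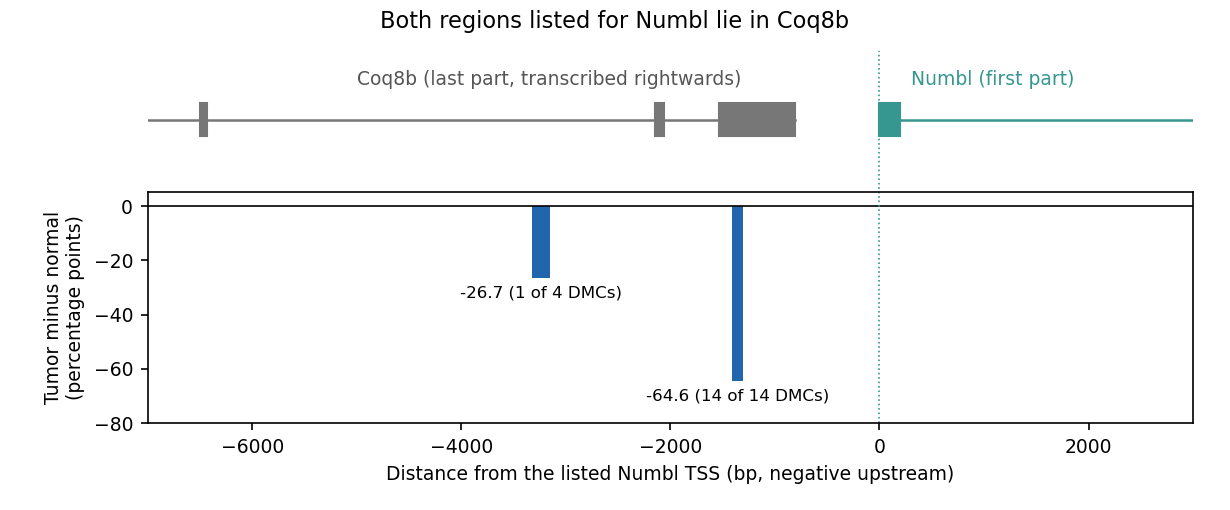
Exons (boxes) at the end of Coq8b and the start of Numbl, above the methylation difference (percentage points, tumor minus normal) of both listed regions, against distance from the listed Numbl TSS in bp. Both regions lie in Coq8b, the one of -64.6 points inside its last exon.

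Numb, the better known adaptor of the pair, had no region of its own in the table. The region closest to it lay 1713 bp beyond the end of the gene, on chromosome 12 from 83791880 to 83792321 (GRCm38), and had gained 57.4 points with 5 of 5 measured cytosines DMCs. It was listed under Papln, which encodes an extracellular matrix protein, and fell in a coding exon of that gene, 28246 bp downstream of the Papln TSS. The reference has 8 CpG sites in it, so 5 of 16 possible cytosines were measured. This region was looked up by position after the values were known and is not among the 5.

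Among the receptors, Notch1 had 1 region and the others none. The Notch1 region showed a loss of -21.5 points, with 1 of 3 measured cytosines a DMC, and lay in an intron 9831 bp downstream of the TSS. It was the one member region inside the gene it was assigned to, against at least 29.8% of all listed regions. That share is a lower bound. A region in another gene's exon was not counted where it also lay in an intron of its assigned gene. Notch2, which pairs with Jag1 in bile duct formation, had no listed region within 100 kb of the gene, and the closest one was 790706 bp away. For Notch3, the receptor of vascular smooth muscle cells and pericytes, the closest was 214565 bp away. Next to Notch4, a receptor found mainly in endothelial cells, a loss of -22.2 points with 1 of 4 cytosines a DMC lay 9897 bp beyond the end of the gene, in a coding exon of Ager.

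Of the ligands, Jag1 had the 1 region assigned by name. Its difference was -34.1 points, and 2 of 3 measured cytosines were DMCs. The region spanned 32 bp with 2 CpG sites, so 3 of 4 possible cytosines had been measured, and all of it was repeat-masked in the reference, as was more than 50% of the sequence in 27.2% of all listed regions. It lay 181414 bp upstream of the Jag1 TSS, in an intron of the long non-coding RNA gene Gm14055, and was the closest listed region to Jag1 nonetheless. Jag2 had no region by name, but 1 region lay in a coding exon of the gene, on chromosome 12 from 112915315 to 112915717. It was listed under Mir6941, had a difference of -20.9 points, and 2 of its 4 measured cytosines were DMCs, of 28 possible. Dll1, a Delta-like ligand, had no listed region closer than 553160 bp.

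Hes1, the transcriptional repressor that serves as a standard readout of Notch activity, was the one gene with a gain. Its region lay in intergenic sequence 20936 bp downstream of the TSS. The difference was 20.3 points, with 1 of 3 measured cytosines a DMC of 8 possible. It was thus close to the smallest absolute difference in the table and ranked 13565 of 14176 by that measure.

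**Figure D3:**
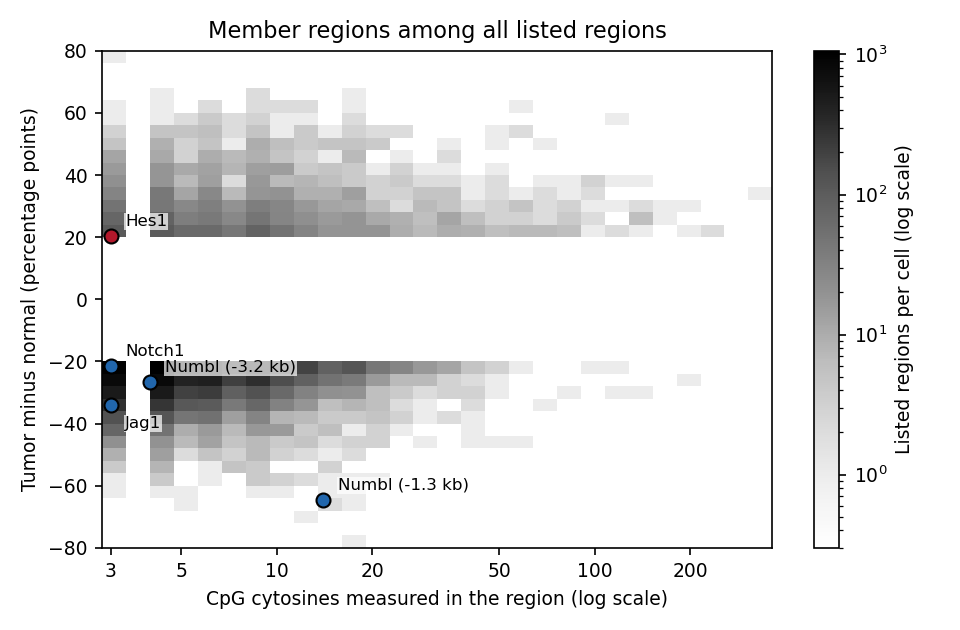
Number of regions of the whole table (grey, log scale) by CpG cytosines measured (log scale) and methylation difference in percentage points, with the 5 member regions as points. The proximal Numbl region lies at the edge of the distribution with 14 cytosines and -64.6 points, and the other 4 lie at 3 or 4 cytosines between -34.1 and 20.3 points.

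The absence of a region does not show that a gene kept its methylation, because sites below the authors' thresholds and sites that were not measured are alike missing from the table. Sequence for RRBS was present at all 10 genes. Within 2000 bp of the TSS, the 6 genes without a listed region had from 9 to 33 CCGG sites (median 19.5) and from 5 to 18 MspI fragments of 40 to 300 bp (median 10). The 4 genes with a region had from 15 to 50 sites and from 7 to 23 fragments. The range of 40 to 300 bp was set for this count and is not the authors' size selection. No region was listed within 2000 bp of the 5′ end of any of the 10 genes except the proximal Numbl region. Of all protein-coding RefSeq genes, 24.3% (5322 of 21883) had a listed region.

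**Figure D4:**
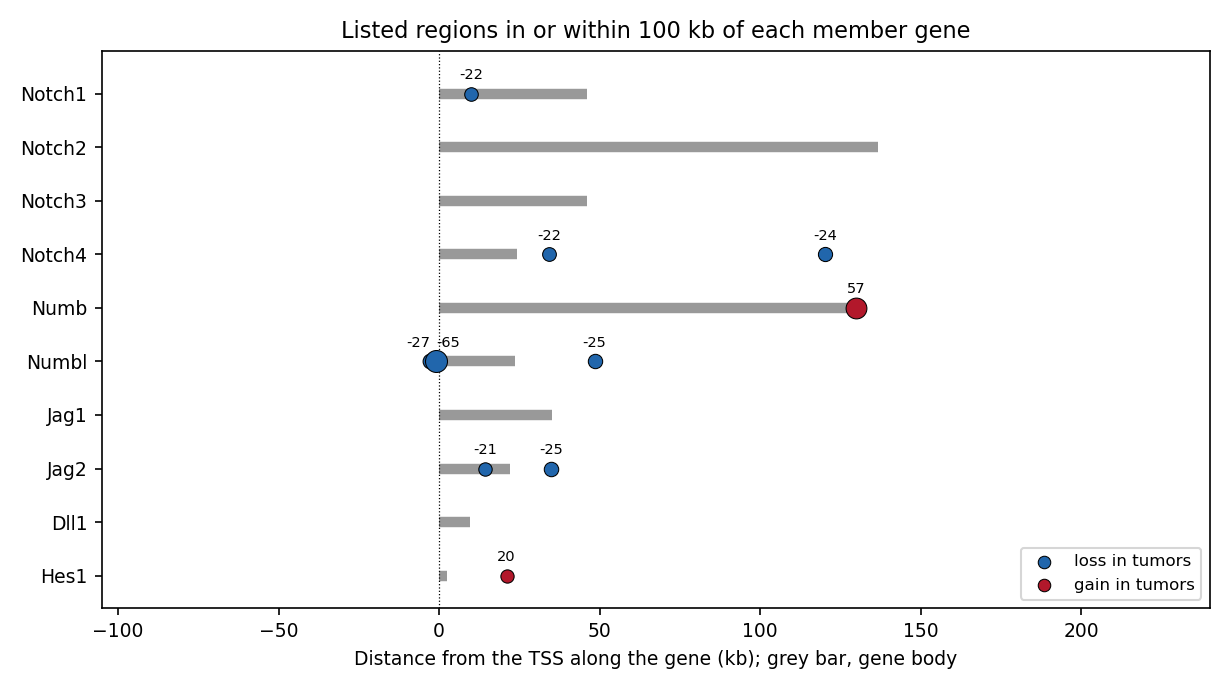
Each of the 10 genes drawn from its TSS (0 kb) along its direction of transcription, with listed regions in or within 100 kb of the gene body as points sized and labelled by their difference in percentage points. Notch2, Notch3, Jag1 and Dll1 have none in this window (the Jag1 region is 181414 bp upstream), and the largest differences are at Numbl (-64.6) and beyond the end of Numb (57.4).

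The core binding motif of Rbpj, TGGGAA, was searched on both strands in the 300 bp centred on each region. It occurred in the windows of the Jag1 and Hes1 regions, 2 of 5, and in 26.4% of such windows over all listed regions. The printed sequences of the Jag1 and Hes1 regions themselves do not hold the motif.

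The rest of the pathway was read from 6 lists with 88 genes in all. Of these, 35 genes (39.8%) had a listed region, against 24.3% of all protein-coding genes, and the counts of genes per list below are to be read beside that share. In all, 44 of their 65 regions were losses (67.7%, against 85.1% in the whole table) and 21 were gains. At 30 points or more there were 11 losses and 3 gains, which is 21.5% of the 65 regions against 23.5% of the whole table. Their median difference was -22.4 points.

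Among the other ligands and the genes for receptor glycosylation and cleavage, the share of losses was near that of the whole table (85.1%). Of 8 other ligands, canonical and non-canonical, 3 had a region, and 8 of 9 regions were losses (88.9%). Cntn1, a neuronal adhesion protein reported as a non-canonical ligand, had the largest, -32.2 points in an intron with 2 of 3 cytosines DMCs. Of 15 genes for receptor glycosylation and cleavage, 4 had a region, with 4 losses (80%) and 1 gain. The largest loss was assigned to Mfng, a Fringe glycosyltransferase that tunes the choice of ligand, at -57.0 points with 12 of 13 cytosines DMCs, but it lay in an intron of Card10, 9418 bp upstream of Mfng. Furin, the protease of the first receptor cleavage, had an intergenic loss of -33.1 points 33547 bp upstream.

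Gains were the more frequent direction in the lists for ubiquitin ligases and for Numb partners. Losses made up 37.5% and 36.4% of their regions, against 85.1% in the whole table. Of 14 ubiquitin ligase and endocytosis genes, 4 had a region, with 5 gains and 3 losses, and the largest difference, assigned to Nedd4l, was 34.2 points in an exon of the non-coding gene Gm41756. That exon is also within the span of Nedd4l, between listed regions in Nedd4l introns. The other gains of this list lay in Nedd4l, Dtx1, Dtx2 and Neurl1b. Its 3 losses lay in Nedd4l and Dtx1 as well. Of 15 Numb partners, 7 had a region, with 7 gains and 4 losses. The gains were between 21.6 and 29.1 points. Of these, 3 belonged to the polarity gene Pard3, each with 1 of 3 cytosines a DMC. At 30 points or more this list held only losses. These were -38.9 points assigned to Mdm2, the ubiquitin ligase of p53, in an intron of Cpm, and -33.3 points in an intron of the endocytic adaptor Eps15l1. Regions of a single gene are not independent, so these counts rest on 4 and 7 genes.

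For nuclear and target genes the shares of losses lay on either side of the 85.1% of the whole table. Of 22 genes of the nuclear complex and its corepressors, 12 had a region, with 16 losses (72.7%) and 6 gains. Tle1, a Groucho corepressor, had the largest difference, 48.8 points higher in tumors, where all 8 of 8 cytosines were DMCs. This region was intergenic, 112525 bp downstream of the TSS, and 93.5% of it was repeat-masked. The coactivator gene Maml3 followed with a loss of -45.4 points in an intron (3 of 4 cytosines DMCs). Of 14 transcriptional targets besides Hes1, 5 had a region, with 9 losses (90%) and 1 gain, and all 10 regions were intergenic. Nrarp, a feedback inhibitor of Notch, had -51.1 points with 6 of 6 cytosines DMCs 35057 bp upstream, and Hey2, a relative of Hes1, had -32.4 points 22447 bp upstream.

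**Figure D5:**
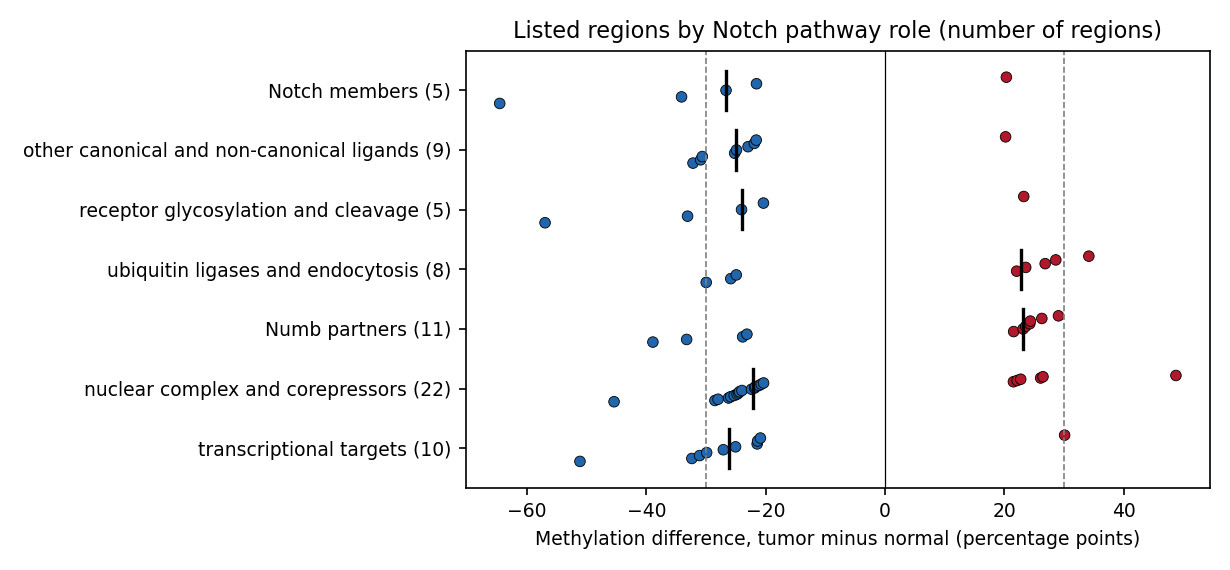
Methylation difference (percentage points, tumor minus normal) of every listed region assigned to the 10 genes and to the 6 further pathway lists, with the number of regions in brackets, black bars at the medians and dashed lines at 30 points. Medians lie between -26.7 and -22.1 points in 5 of the 7 groups, and at 22.8 and 23.1 points for ubiquitin ligases and Numb partners.

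Marker genes of the cell types that liver tissue holds were counted in the same way. Losses made up 4 of 4 regions for cholangiocyte markers, 14 of 15 for endothelial markers, 6 of 7 for stellate cell and fibroblast markers and 4 of 6 for hepatocyte markers, and leukocyte markers had 1 region, a gain. The share of losses in the whole table was 85.1%, and nothing particular to a marker list is read from these counts. At 30 points or more, the largest were in a coding exon of the endothelial scavenger receptor gene Stab1 (-36.3 points, 21 of 32 cytosines DMCs) and, assigned to the urea cycle gene Ass1, in an intron of Hmcn2 (-36.0 points). The part of the cell mixture in the differences at the Notch genes was not tested.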

How the data were processed

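Liver DNA of 3 normal and 3 tumor samples was compared. The authors trimmed reads with Trim Galore, aligned them to mm10 with Bismark, counted C and T reads per CpG cytosine and strand and called DMCs with methylKit, and built regions with eDMR. They used bedtools 2.25.0 to extract regions near a TSS, and the tool that listed the nearest gene of each region is not stated. For the other tools, the sources used here name no version. The authors' deposited table holds their mean difference in percentage points per region, cytosine and DMC numbers and positions. Values per sample and read depth were not analysed here.

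Starts were counted from 0 (13.9% began at a CpG before 1 was added and 100% afterwards), so 1 was added. Gene parts, islands, repeats and CCGG sites came from RefSeq GRCm38.p6 with Python 3.11.15, pandas 2.3.3 and pysam 0.24.0. Possible cytosines are 2 per CpG that lies wholly in the region. Distances run from the region's near end.

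The 10 genes and the lists were chosen with earlier results of these data known. Named genes were the members, list genes at 30 points or more (at most 12, by absolute difference) and neighbours within 50000 bp. Any other gene was named after its values were seen. Alternatives were other minimums of difference, cytosines and DMCs, promoter limits, islands and gene assignment. No test was run.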

Additional observations from a re-analysis of the deposited data

How the results depend on the processing

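The minimums of difference, cytosines and DMCs only filtered the listed values again. With -64.6 points, 14 cytosines and 14 DMCs, the proximal Numbl region had to pass all of them, so its presence is no added support. The other regions dropped out of most. With at least 25, 30 and 40 points, 3, 2 and 1 of the 5 regions were left, and of the 4 losses 2 and 1 at the latter minimums. With at least 5 or 10 cytosines, or 3 DMCs, 1 region was left, and 1 of the 2 regions at 30 points. The median of -26.7 points became -34.1 at 25 points, -49.3 at 30 points and -64.6 with 5 or 10 cytosines. With each region given to the gene that holds it, or to the nearest TSS where none does, the members had 3 regions (at Notch1, Hes1 and in Jag2), with 2 losses and 0 at 30 points, because both Numbl regions go to Coq8b and the Jag1 region to Gm14055. In the gene body or within 10000 bp there were 6 regions with 5 losses, but not the same set. The Jag1 and Hes1 regions dropped out, and regions in Jag2, Papln and Ager came in beside those of Notch1 and Numbl. The gain was then the Papln region (57.4 points). The assignment within 10000 bp, and the counts of losses and of 30 points by holding gene, were added after the data were seen. A promoter limit of 1000 bp left 0 regions and one of 5000 bp gave 2, and the stricter island definition left 0 in an island. Leaving out replicates could not be run, since no value per sample was at hand. No paired analysis was possible because the table carries no sample values.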

Other observations

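A loss and a gain lay side by side upstream of Id1, an inhibitor of basic helix-loop-helix factors and a target gene in the lists. On chromosome 2, the region from 152723876 to 152724234 had gained 30.1 points with 9 of 16 cytosines DMCs. The region from 152725473 to 152725571, 1239 bp further on and 10680 bp upstream of the TSS, stood at -31.1 points, and 7 of its 12 cytosines were DMCs. In the whole table, 395 pairs of neighbouring regions were within 2000 bp of each other, 20 of these (5.06%) had opposite directions, and 5 did so with at least 30 points on each side. The Numbl regions were the one other such pair among the pathway genes, with a loss on each side.

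Mdm2 was the nearest gene of regions with opposite directions as well, 24.3 points with 2 of 4 cytosines DMCs at 818 bp upstream of its TSS, and -38.9 points in Cpm, 34130 bp downstream. At Pard3, 3 of 4 regions were gains. The one 765 bp upstream of the listed TSS stood at 26.3 points with 1 of 3 cytosines a DMC. It lay in an intron of Pard3, so that TSS is not the first start of the gene. These genes were picked after their values were seen, and their values are given as descriptions.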
